A study of Mus musculus with 4 samples.

Results

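The genes described here are 44 members of the bone morphogenetic protein (BMP) and transforming growth factor beta (TGF-beta) pathway, taken by gene symbol from count tables that list 23282 symbols. They comprise 11 receptors, 8 SMADs, 4 ID targets, 7 ligands, 6 antagonists and co-factors outside the cell, 3 latent TGF-beta binding proteins, 4 brakes on SMAD signalling inside the cell and the TGF-beta induced matrix protein Tgfbi. All 44 were listed in the tables. They were measured in endothelial cells (ECs), the cells that line blood vessels, from the dura mater, the outermost membrane between skull and brain, and from the brain parenchyma. Each tissue had 2 libraries, all from C57BL/6J mice aged 8 weeks. The question put to these libraries was how the ECs of the dura mater differ from those of the brain.

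Tissues were dispersed with enzymes, and cells positive for CD31 and negative for CD45 and TER-119 were sorted. Brain ECs were enriched with magnetic beads before the sort, so tissue and this extra handling step cannot be told apart. The sources do not say whether the libraries of a tissue came from separate mice or pools, so the error between them may be technical. Library totals were between 13518973 and 16096203 counts. The 10 pan-endothelial marker genes had 64 or more counts in every library and took 0.83% to 1.27% of the counts, and the 8 brain EC markers took 2.54% and 2.26% of brain counts, against 0.347% and 0.346% of dura mater counts. The libraries of a tissue were far apart: Pearson's r of log2(CPM + 1) over 9347 genes, which are not independent replicates, was 0.54 between the brain libraries and 0.672 between the dura mater libraries. It lay between 0.407 and 0.576 across tissues. CPM is a count scaled to library size and TMM factor. Even widely expressed genes were erratic, and Tbp and Gusb, 2 of 24 such genes, were at 0 in at least 1 library. A member at 0 here is therefore given as listed at 0, not as absent from the cells. In sorted cells in bulk, fewer cells of a type and less RNA per cell cannot be told apart.

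BMPs and TGF-betas are secreted dimers that bind pairs of type I and type II serine/threonine kinase receptors. The type I receptor phosphorylates a receptor SMAD (SMAD1, SMAD5 and SMAD9 for BMPs, SMAD2 and SMAD3 for TGF-betas and activins), which joins SMAD4 and enters the nucleus. In ECs the type I receptor ALK1 (gene Acvrl1), the co-receptor endoglin (Eng) and the type II receptor Bmpr2 carry the response to the circulating ligands BMP9 and BMP10, and loss of these genes causes vascular malformations or pulmonary arterial hypertension in people. ID genes are immediate targets of the BMP branch. The inhibitory SMADs, SMAD6 and SMAD7, and secreted antagonists limit the signal.

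For the members on which the results turn, promoter windows of 250 bases before the gene start were read from RefSeq on GRCm38.p6. Windows were found for 32 of the 44 members, 38 windows in all. No entry was matched for Acvrl1, Tgfbr3, Smad2, Smad4, Smad7, Id1, Bmp2, Tgfb3, Bambi, Fst, Nog or Skil. A window of 4 members is shown, each 5′ to 3′ on the strand of its gene: the ligand Bmp4, the ID gene Id4 and the receptor Acvr2a, which had higher counts in the dura mater libraries, and the co-receptor Eng, which was well counted in both tissues. Capitals mark GGCGCC, a GC-rich letter string bound by BMP SMADs, and CAGAC on either strand (GTCTG), the SMAD-binding element core. GGCGCC reads the same on both strands, and the motifs can share at most 1 base.
Bmp4, chr14:46390670-46390919, minus strand: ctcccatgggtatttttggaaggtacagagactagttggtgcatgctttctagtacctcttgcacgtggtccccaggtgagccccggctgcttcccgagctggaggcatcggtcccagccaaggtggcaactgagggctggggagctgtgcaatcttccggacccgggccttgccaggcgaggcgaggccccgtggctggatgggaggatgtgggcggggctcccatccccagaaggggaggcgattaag
Id4, chr13:48260866-48261115, plus strand: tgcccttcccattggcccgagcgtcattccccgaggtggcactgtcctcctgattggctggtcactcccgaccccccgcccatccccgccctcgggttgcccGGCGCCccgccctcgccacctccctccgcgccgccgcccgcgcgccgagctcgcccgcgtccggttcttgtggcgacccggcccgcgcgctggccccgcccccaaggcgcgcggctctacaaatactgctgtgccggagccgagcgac
Acvr2a, chr2:48813859-48814108, plus strand: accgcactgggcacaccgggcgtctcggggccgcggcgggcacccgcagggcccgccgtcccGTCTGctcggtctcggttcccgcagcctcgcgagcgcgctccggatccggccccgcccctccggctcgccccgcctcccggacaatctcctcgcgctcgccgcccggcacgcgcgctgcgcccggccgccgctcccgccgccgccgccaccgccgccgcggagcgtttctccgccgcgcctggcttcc
Eng, chr2:32646345-32646594, plus strand: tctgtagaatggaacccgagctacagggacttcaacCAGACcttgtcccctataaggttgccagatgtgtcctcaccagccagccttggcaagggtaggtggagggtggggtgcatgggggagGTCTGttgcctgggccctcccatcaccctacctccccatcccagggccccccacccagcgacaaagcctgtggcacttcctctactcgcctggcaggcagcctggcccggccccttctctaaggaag
The Bmp4 window held neither string, the Id4 window held 1 GGCGCC, the Acvr2a window 1 CAGAC and the Eng window 2 of these. The string GGCGCC was present in 13 of the 38 member windows and in 9.59% of all 32851 windows of this length. The string CAGAC was present in 16 of the 38 and in 42.2% of all. The member windows were richer in G and C, with a median of 68.2% against 52.4%, and the motif shares were not corrected for that. A match of letters is a description of the window, and no binding was measured here.

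The dura mater libraries had more counts of 2 BMP ligands, Bmp2 and Bmp4, of the secreted glycoprotein Fstl1, of the receptors Acvr1 and Acvr2a, and of Id4 and Tgfbi. The main BMP receptors of endothelium and the ID genes Id1 and Id3 were well counted in both tissues. None of these differences passed edgeR's test at an adjusted p under 0.05 over all genes, while DESeq2 called 7 members and edgeR's newer estimate 3. A test was possible for 33 members, those kept by edgeR's filter on low counts. Of these, 0 had an edgeR adjusted p under 0.05, when 57 of all 9347 genes tested did (0.610%). At an unadjusted p under 0.05 there were 6 members, all higher in dura mater ECs (Bmp2, Bmp4, Tgfbi, Fstl1, Acvr1 and Id4), and 0 lower, against 7.04% of all genes tested on the higher side and 2.97% on the lower. DESeq2 gave 7 members at an adjusted p under 0.05 (those 6 and Acvr2a), all higher, where 9.02% of all genes passed and 6.90% did so on the higher side. The count of 6 rose or fell with the library left out. Those fits hold a lone library in a tissue, and the matching share over all genes was not worked out. With 2 libraries a tissue, an exact permutation test of a single gene cannot give a p below 0.333.

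The groups did not overlap for 17 of the 33 tested members, 14 higher and 3 lower in the dura mater libraries, when 43.1% of all genes tested did not (26.2% higher and 16.9% lower). Groups that did not overlap, were at least 4-fold apart and had 64 or more counts in both libraries of the higher group were seen for 10 members, 9 higher and 1 lower (20.9% of all genes, 14.8% higher and 6.12% lower). By edgeR's log2 fold change (dura mater over brain, also called the log2 difference here) 21 members were above 0 and 12 below (49.8% and 50.2% of all genes tested), with a median of 0.64, against -0.01 over all genes. Acvr1, Acvr2a, Id4, Bmp2 and Tgfbi had 64 or more counts in both dura mater libraries and fewer in both brain libraries, so they were tested through the dura mater libraries alone and had to be higher there. The same holds for Ltbp1, at 6 and 4 counts in brain ECs against 10 and 152. These counts are given as a description, not as support.

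**Figure D1:**
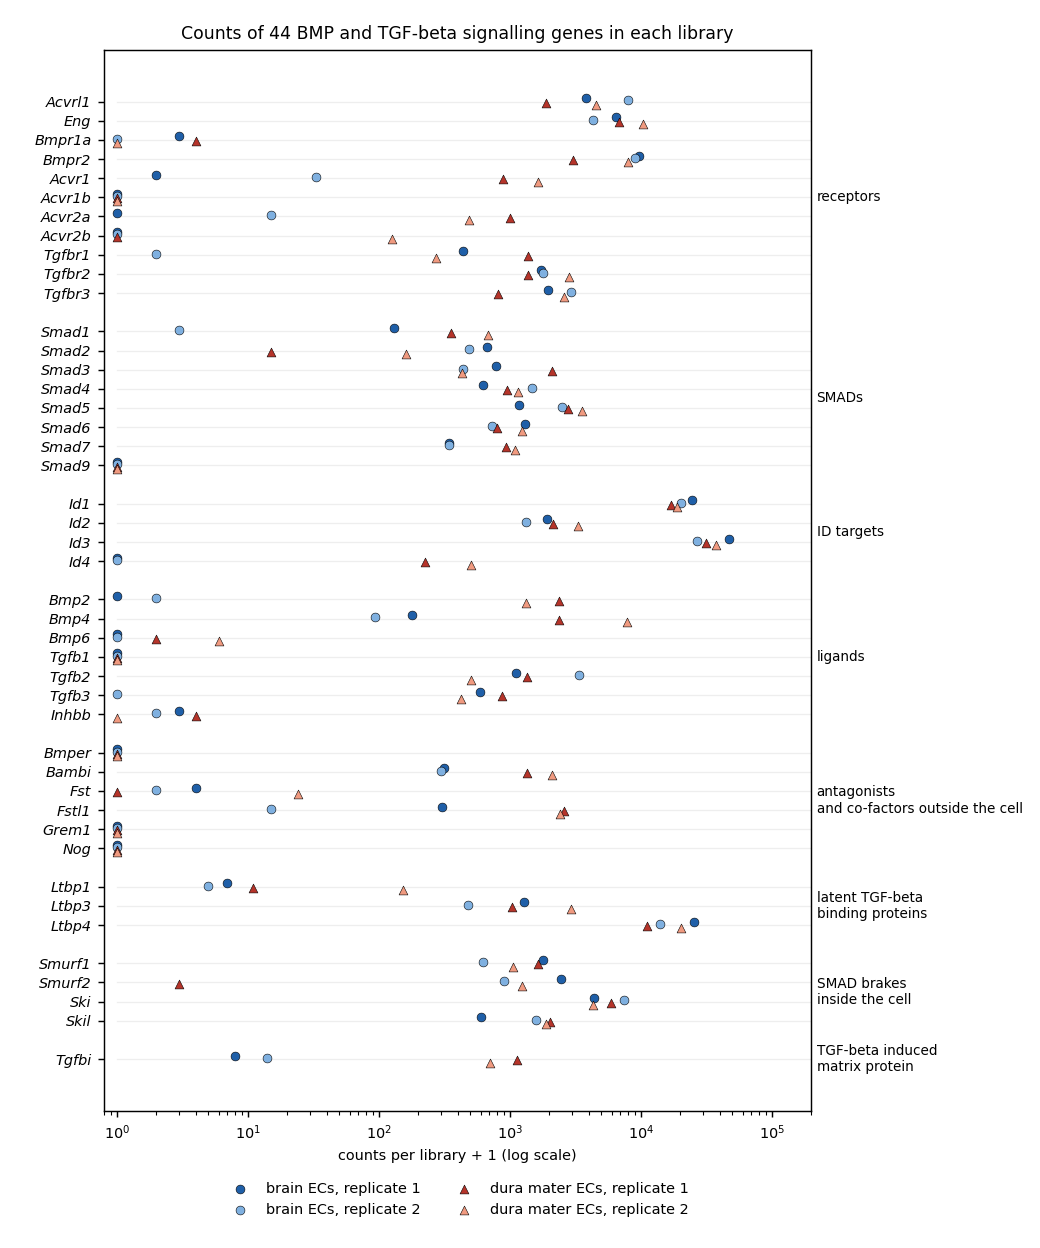
Counts per library plus 1 (log axis) of the 44 members by role, circles for brain ECs and triangles for dura mater ECs. Bmp2, Id4, Acvr1, Acvr2a and Tgfbi sit at 32 counts or fewer in both brain libraries and at 225 or more in both dura mater libraries, while Id1, Id3 and Ltbp4 lie at 11216 or more in all 4.

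Of the 33 tested members, 21 had 64 or more counts in all 4 libraries, against 45.6% of all genes tested. A few libraries of the same tissue disagreed outright. Tgfbr1, Smad1 and Tgfb3 had 64 or more counts in 1 brain library and 7 or fewer in the other (24.6% of all genes tested), and among the dura mater libraries Smurf2 did so (18.0%), as did the untested Acvr2b. Not tested were 11 members. Acvr1b, Smad9, Tgfb1, Bmper, Grem1 and Nog were listed at 0 in all 4 libraries, where 3 counts of a library correspond to 0.182 to 0.225 CPM. Of all 23282 symbols, 13660 had a count in at least 1 library. Bmpr1a, Acvr2b, Bmp6, Inhbb and Fst had counts in some library but did not reach the filter.

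Among the ligands, the BMP genes Bmp2 and Bmp4 were higher in both dura mater libraries. Bmp2 (chromosome 2, 133552159 to 133562885, plus strand, GRCm38) encodes a classic BMP ligand that endothelium secretes. It had 0 and 1 counts in brain ECs, against 2386 and 1340 counts in dura mater ECs, or 0.0375 ± 0.053 CPM against 129 ± 67.2 CPM (SD, n = 2 in each tissue, here and below). The groups were far apart, and the ratio of the scaled counts summed over each tissue was 3474 (95% interval 623 to 137245, from counting error only, since a single brain count sets it). The log2 fold change was 9.53 (SE 1.63, 95% interval 5.58 to 13.47) and the edgeR adjusted p was 0.0883, with a range of 9.03e-09 to 0.771 over 16 other settings.

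Bmp4 (chromosome 14, 46383520 to 46390669, minus strand) encodes a ligand that signals through the same kind of receptor pair as BMP2. Its counts were 180 and 93 in brain ECs, against 2364 and 7793 in dura mater ECs, and the dura mater libraries themselves differed widely. In CPM the groups were at 9.64 ± 3.78 and 324 ± 211. The log2 fold change was 5.05 (SE 0.82, 95% interval 3.07 to 7.03), 34.7-fold by the scaled counts summed over each tissue (95% interval 30.8 to 39.3, counting error only), with an edgeR adjusted p of 0.0739 that ranged from 4.53e-09 to 0.566 over 17 other settings. Leaving out brain library 1, brain library 2 or dura mater library 1 brought it to 4.53e-09, 1.71e-07 and 0.0142, and leaving out dura mater library 2 to 0.566. For Bmp2 the same values without each library in turn were 4.29e-07, 9.03e-09, 0.771 and 0.07. Fibroblast markers other than Mgp were also higher in both dura mater libraries, at 0.0824% and 0.0633% of counts against 0.00331% and 0.00497%, and their part in the Bmp4 value was not tested. The annotation places an antisense gene over 3.96% of the exon bases of Bmp4 and none over Bmp2, and whether reads were counted by strand is not stated.

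The TGF-beta ligands did not separate. Tgfb2, a ligand made by many tissues, had 1121 and 3366 counts in brain ECs, against 1361 and 502 counts in dura mater ECs. The tissues overlapped, at a log2 difference of -1.33 (SE 0.95, edgeR adjusted p = 0.809). Tgfb3 had 590 and 0 counts against 878 and 421, so a brain library at 0 lay beside one at 590 and the tissues overlapped (1.16, SE 2.76, edgeR adjusted p = 1). Without brain library 1 the value was 8.36 (edgeR adjusted p = 0.0569), without brain library 2 it was 0.12 and without dura mater library 1 it was 0.2. Tgfb3 shares 12.4% of its exon bases with antisense genes. Tgfb1 was listed at 0 in all 4 libraries. Bmp6, an endothelial BMP known for driving hepcidin in the liver, had 0 and 0 counts against 1 and 5, and Inhbb, the activin B subunit, 2 and 1 against 3 and 0. The median over the 4 tested ligands was 3.10. The ligands' CPM summed over members were 129 and 259 in brain ECs, against 517 and 611 in dura mater ECs.

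**Figure D2:**
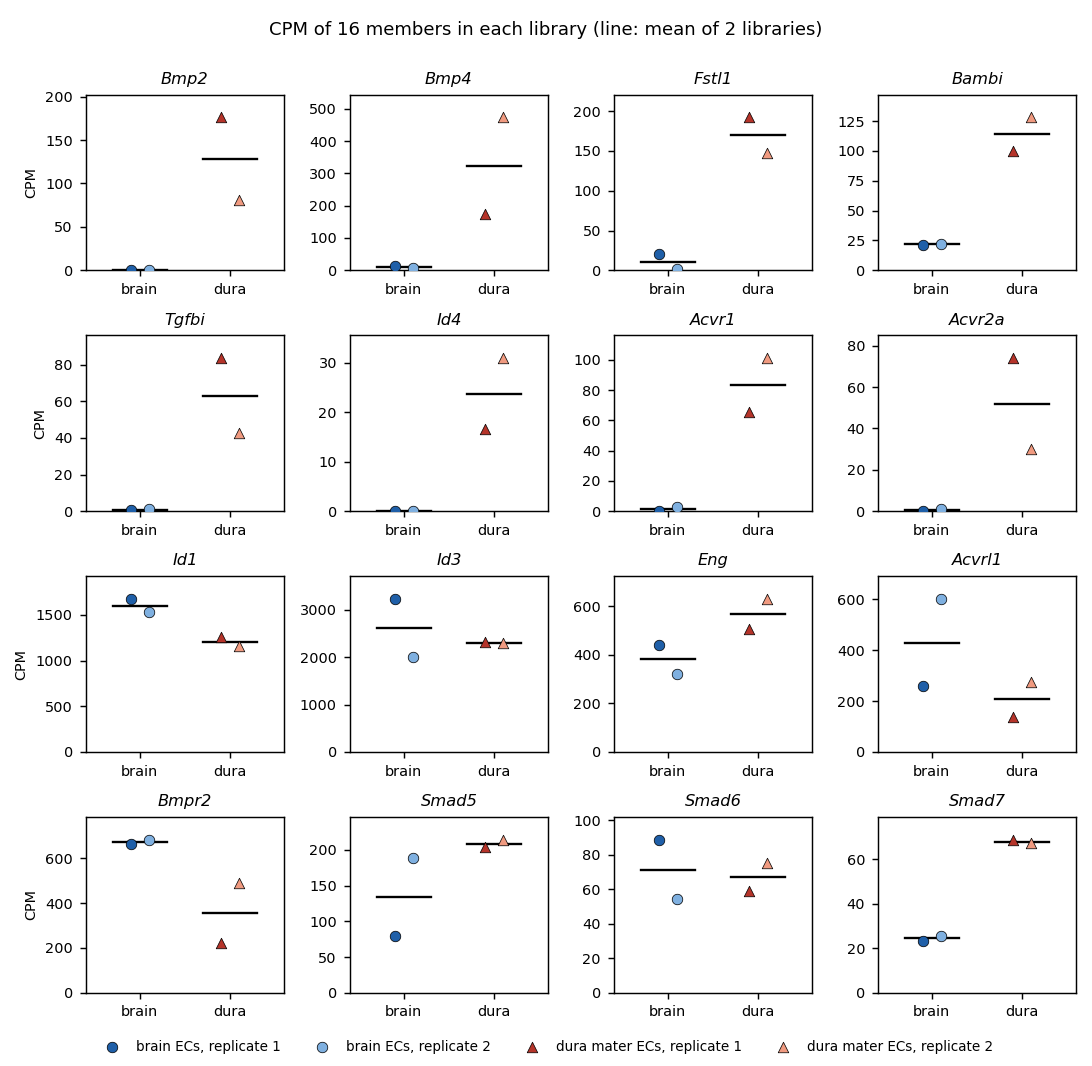
CPM of 16 members in each library, with a line at the mean of the 2 libraries; each panel has its own linear axis from 0. Bmp2, Bmp4, Fstl1, Bambi, Tgfbi, Id4, Acvr1, Acvr2a, Eng, Smad5 and Smad7 lie higher in both dura mater libraries, and Id1 and Bmpr2 lower.

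The receptors known best from endothelium were well counted in both tissues. Acvrl1 (ALK1; chromosome 15, 101128522 to 101145336) had 3793 and 8007 counts in brain ECs, against 1885 and 4543 counts in dura mater ECs. The groups overlapped, with 429.7 ± 241 against 208 ± 96.5 CPM and a log2 difference of -1.05 (SE 0.59, 95% interval -2.48 to 0.38, edgeR adjusted p = 0.627). Without brain library 1 its value was -1.59 at an edgeR adjusted p of 0.0353, and without the other libraries in turn the p was 0.664 to 0.831. Eng (chromosome 2, 32646595 to 32682669) had 6454 and 4284 counts against 6853 and 10354, 381 ± 85.1 and 568 ± 86.3 CPM. The dura mater libraries were the higher, narrowly, by 0.57 on the log2 scale (SE 0.38, 95% interval -0.35 to 1.5, edgeR adjusted p = 0.760). Bmpr2 (chromosome 1, 59763400 to 59879014), the type II receptor for BMPs, had 9719 and 9101 counts in brain ECs, against 3013 and 8049 counts in dura mater ECs. The brain libraries lay close together and above both dura mater libraries, which differed from each other, at a log2 difference of -0.92 (SE 0.47, 95% interval -2.05 to 0.21, edgeR adjusted p = 0.551).

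Acvr1 and Acvr2a differed more. Acvr1 (ALK2; chromosome 2, 58388644 to 58567157, minus strand), a type I receptor for BMPs, had 1 and 32 counts in brain ECs, against 882 and 1656 counts in dura mater ECs. The CPM were 1.23 ± 1.65 and 82.9 ± 25.0, and the log2 fold change was 5.92 (SE 2.26, 95% interval 0.46 to 11.38, edgeR adjusted p = 0.466). Without brain library 2 that p was 0.00159 and without the others 0.0804 to 0.801. Acvr2a (chromosome 2, 48814109 to 48903269, plus strand), a type II receptor shared by activins and BMPs, had 0 and 14 counts against 1000 and 492. The groups did not overlap, at 0.524 ± 0.742 and 51.9 ± 31.1 CPM and a log2 difference of 6.30 (SE 3.0, 95% interval -0.97 to 13.56, edgeR adjusted p = 0.510). Without brain library 2 its edgeR adjusted p was 0.0259 and without the others 0.28 to 0.926. On the opposite strand, Orc4 covers 7.84% of its exon bases.

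The TGF-beta receptors overlapped between tissues. Tgfbr2, the type II receptor for TGF-beta, had 1741 and 1792 counts against 1382 and 2842, with a log2 difference of 0.12 (SE 0.63, 95% interval -1.42 to 1.65, edgeR adjusted p = 1). Tgfbr1, its type I partner, had 438 and 1 counts against 1368 and 273, and the tissues overlapped at 1.96 (SE 2.50, edgeR adjusted p = 1). Without brain library 1 it was 8.12 at an edgeR adjusted p of 0.0302, without brain library 2 it was 0.94, and without dura mater library 1 it was 0.01. Tgfbr3, the co-receptor betaglycan, was at -0.71 (SE 0.72). Bmpr1a, the type I BMP receptor ALK3, was barely counted, with 2 and 0 counts against 3 and 0. Acvr2b had 0 and 0 against 0 and 125, and Acvr1b was listed at 0. The median over the 8 tested receptors was 0.35. The receptors' summed CPM were 1648 and 1962 in brain ECs, against 1271 and 1877 in dura mater ECs, so the tissues overlapped.

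Of the SMADs, the groups of Smad1, Smad2, Smad5 and Smad7 did not overlap. Smad1 (BMP branch) had 130 and 2 counts in brain ECs, against 353 and 681 counts in dura mater ECs, a log2 difference of 2.86 (SE 2.76, edgeR adjusted p = 0.963). The brain libraries disagreed, its 95% interval ran from -3.82 to 9.54, and its value was 6.84 without brain library 1 and 1.84 without brain library 2. Smad5, the other BMP SMAD, had 1169 and 2524 counts against 2766 and 3530 (0.64, SE 0.62, edgeR adjusted p = 0.964). Smad2, the activin and TGF-beta SMAD, went the other way, with 673 and 491 counts against 14 and 160. It was lower in both dura mater libraries by -2.91 on the log2 scale (SE 2.35, 95% interval -8.59 to 2.77, edgeR adjusted p = 0.893), and was the only member lower by the 4-fold rule. Without dura mater library 2 its value was -5.16, and without each other library in turn it lay between -3.16 and -2.22.

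The inhibitory SMADs differed in their replicate spread. Smad7 had 342 and 342 counts in brain ECs, against 928 and 1105 counts in dura mater ECs, 24.5 ± 1.58 against 67.8 ± 1.06 CPM. Both pairs of libraries were tight, but the fit, which shares the spread over genes, gave a log2 difference of 1.46 with an SE of 1.36 and an edgeR adjusted p of 0.952. Smad6, which acts mainly on the BMP branch, had 1297 and 725 counts against 802 and 1241. The tissues overlapped at -0.09 (SE 0.98, 95% interval -2.45 to 2.28, edgeR adjusted p = 1). The common SMAD, Smad4, had 624 and 1478 counts against 948 and 1155 (-0.13, SE 0.99), and Smad3 was at 1.05 (SE 1.22), both with overlapping tissues. Smad9 was listed at 0. The median of the 7 tested SMADs was 0.64, and their summed CPM were 344 and 449.9 in brain ECs, against 584 and 504 in dura mater ECs.

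The ID genes encode proteins that bind and block basic helix-loop-helix transcription factors. Id1 and Id3, direct targets of BMP9 and BMP10 in endothelium, were among the most counted members. Id1 (chromosome 2, 152736251 to 152737410) had 24459 and 20409 counts in brain ECs, against 17032 and 19029 counts in dura mater ECs. The brain libraries lay above, at 1601 ± 101 and 1207 ± 73.2 CPM, a log2 difference of -0.41 (SE 0.28, 95% interval -1.08 to 0.27, edgeR adjusted p = 0.786). Id3 (chromosome 4, 136143497 to 136145755) had 47188 and 26764 counts against 31313 and 37854, and the tissues overlapped (-0.18, SE 0.32, 95% interval -0.94 to 0.58, edgeR adjusted p = 1).

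Id4 stood apart from the other ID genes. It (chromosome 13, 48261228 to 48266026, plus strand) had 0 and 0 counts in brain ECs, against 225 and 509 counts in dura mater ECs. With 3 counts over the brain group taken as the floor, the ratio was at least 228. That bound covers counting error only, not the spread between libraries. The edgeR value of 7.44 (SE 2.75, adjusted p = 0.466) depends on the prior count and is no bound. Id2 was narrowly higher, at 1936 and 1323 counts against 2131 and 3342 (0.64, SE 0.57, edgeR adjusted p = 0.946). The median over the 4 ID genes was 0.23. Their summed CPM were 5032 and 3634 in brain ECs, against 3747 and 3687 in dura mater ECs, with no separation.

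Of the 6 antagonists and co-factors outside the cell, 2 were tested, and both were higher in the dura mater libraries. Fstl1 (chromosome 16, 37776873 to 37836514), a secreted glycoprotein that binds BMP4 and other members of this family, had 301 and 14 counts in brain ECs, against 2591 and 2439 counts in dura mater ECs. The dura mater libraries agreed closely and the brain libraries did not, at 10.8 ± 13.8 and 169.8 ± 30.7 CPM. The log2 fold change was 3.95 (SE 1.46, 95% interval 0.41 to 7.5, edgeR adjusted p = 0.466), with a log2 value of 7.12 and an adjusted p of 5.22e-07 without brain library 1, and adjusted p of 0.0252 without brain library 2, 0.771 without dura mater library 1 and 0.634 without dura mater library 2. Bambi, a transmembrane pseudoreceptor that blocks type I receptors, had 314 and 299 counts against 1354 and 2101, and both pairs were tight (21.9 ± 0.658 and 114 ± 19.4 CPM). Its log2 fold change was 2.37 (SE 1.02, 95% interval -0.11 to 4.85, edgeR adjusted p = 0.467). The antagonists Bmper, Grem1 and Nog were listed at 0. Follistatin (Fst), which captures activins, had 3 and 1 counts against 0 and 23.

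The latent TGF-beta binding proteins, which hold TGF-beta in the matrix, gave little separation. Ltbp4, the most counted of them, had 25420 and 13948 counts in brain ECs, against 11216 and 20426 counts in dura mater ECs (-0.43, SE 0.39, edgeR adjusted p = 0.946). Ltbp3 had 1281 and 477 counts against 1032 and 2923 (1.04, SE 0.90), and its groups overlapped. Ltbp1 had 6 and 4 counts against 10 and 152 and a value of 3.38 (SE 2.63). It was tested through the dura mater libraries alone, so it had to be higher there. Among the brakes inside the cell, the ubiquitin ligases Smurf1 (0.12, SE 0.90) and Smurf2 (-1.63, SE 2.03) and the co-repressors Ski (-0.30, SE 0.49) and Skil (605 and 1576 counts against 2021 and 1879, 0.72, SE 0.82) all overlapped between tissues. Ski, the most counted of the brakes in total, had 4361 and 7488 counts against 5903 and 4316. Smurf2 had 2460 and 896 counts in brain ECs against 2 and 1249, so the dura mater libraries disagreed. Its value was -8.67 without dura mater library 2, -0.77 without dura mater library 1 and -0.91 without brain library 1.

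Tgfbi, a matrix protein named for its induction by TGF-beta (chromosome 13, 56609523 to 56639562, plus strand), had 7 and 13 counts in brain ECs, against 1130 and 704 counts in dura mater ECs. The groups were far apart at 0.726 ± 0.35 and 63.1 ± 28.8 CPM. The log2 fold change was 6.19 (SE 2.17, 95% interval 0.94 to 11.44, edgeR adjusted p = 0.466).

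**Figure D3:**
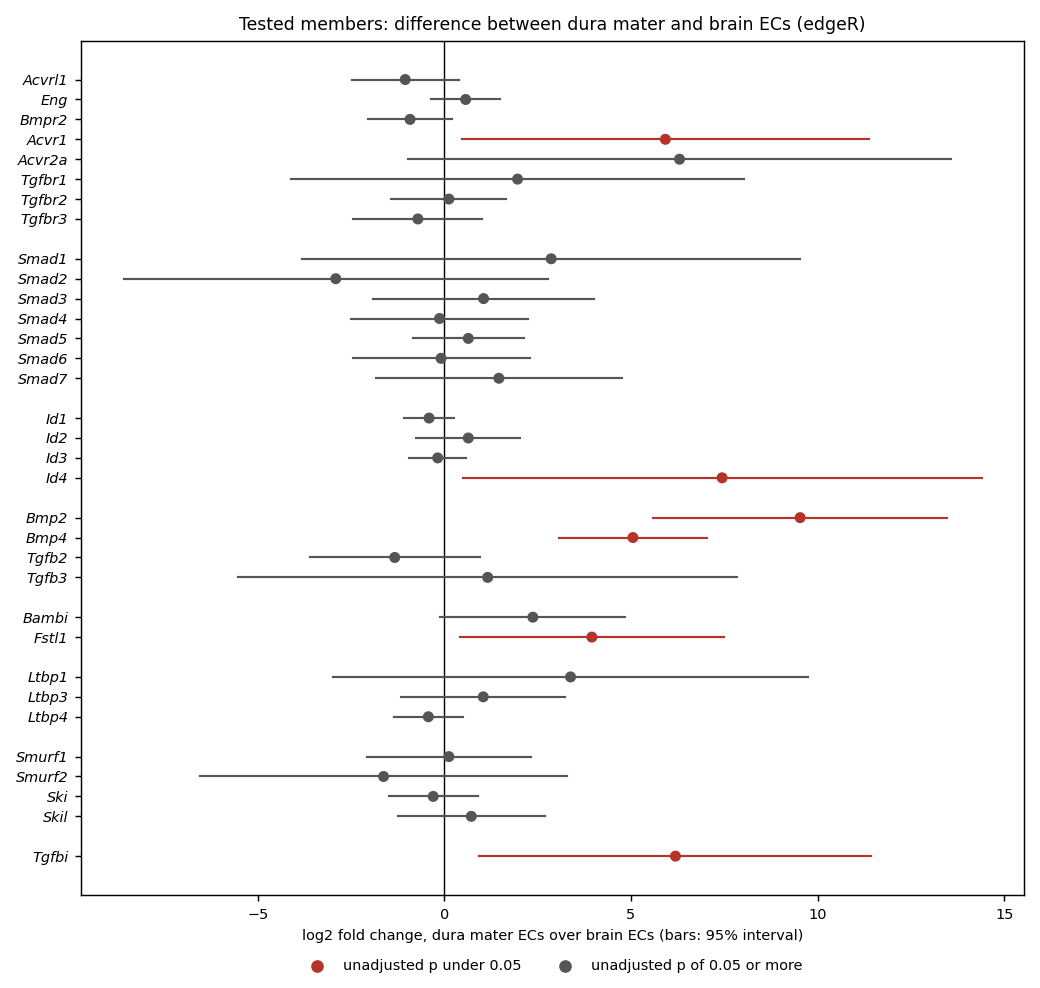
Log2 fold change of dura mater ECs over brain ECs for the 33 tested members, with 95% intervals from edgeR; red marks an unadjusted p under 0.05. The 6 red intervals, of Bmp2, Bmp4, Tgfbi, Fstl1, Acvr1 and Id4, lie above 0, and the intervals of the other members include 0.

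The call on these genes differed between tools, filters and left-out libraries. DESeq2 gave adjusted p of 1.42e-07 for Bmp2, 8.43e-07 for Bmp4, 0.00473 for Tgfbi, 0.0123 for Acvr1, 0.0257 for Id4, 0.0359 for Fstl1 and 0.0381 for Acvr2a. edgeR's newer estimate of the spread gave 3 members (Bmp2, Bmp4 and Fstl1), when it gave 3.26% of all genes. limma-voom gave 0 members, with adjusted p of 0.0867 for Bmp2 and 0.426 for Bmp4, when it gave 0.856% of all genes. A fit with the replicate number as a block gave Bmp2 and Bmp4 (2.40% of all genes). Over all settings run, Bmp4 stayed between 4.14 and 5.46 on the log2 scale and passed in 9 of 17, and Bmp2 stayed between 8.79 and 11.75 and passed in 7 of 16.

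**Figure D4:**
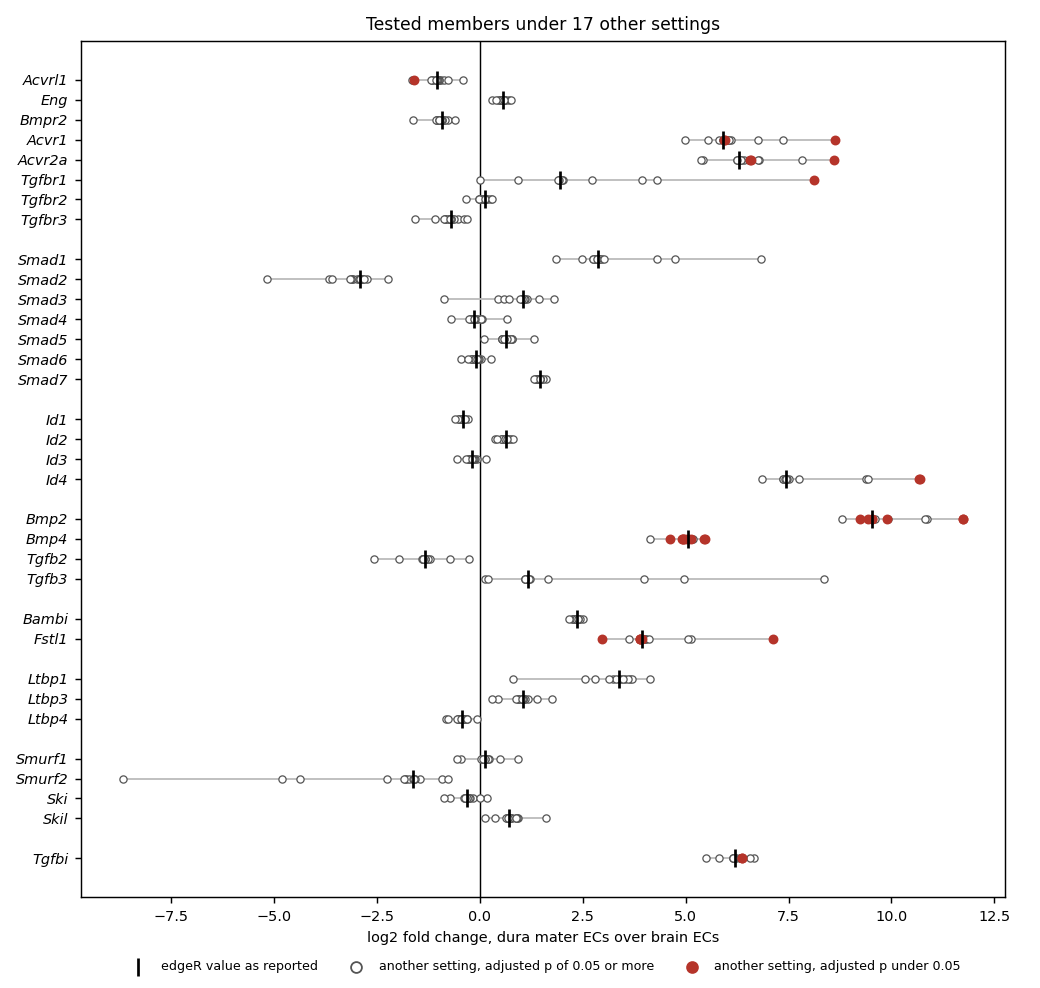
Log2 fold change of each tested member as reported (black bar) and under 17 other settings, or fewer where a setting did not test the gene (points; red where the adjusted p was under 0.05). Bmp2, Bmp4, Acvr1, Acvr2a, Id4, Fstl1 and Tgfbi stay above 0 under every setting, as do others such as Eng, Smad5 and Bambi. Acvr1, Acvr2a, Id4, Bmp2, Tgfbi and Ltbp1 were tested through the dura mater libraries alone, so their sign was fixed beforehand. Smad3, Smad4, Smad6, Id3, Tgfbr2, Smurf1 and Ski fall on both sides of 0.

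Another 93 genes of the pathway, beyond the 44, were read from lists of receptors, ligands, antagonists and matrix proteins, co-factors and targets. Of these 50 were tested and 1 had an edgeR adjusted p under 0.05, Junb, an AP-1 transcription factor that TGF-beta induces. Junb had 21739 and 16651 counts in brain ECs, against 86673 and 103232 counts in dura mater ECs, a log2 difference of 2.21 (SE 0.26, edgeR adjusted p = 0.0248). Junb also stands on a list of genes that tissue dissociation is known to raise, and all 10 genes of that list were higher in both dura mater libraries (0.455% and 0.479% of counts in the brain libraries, 2.41% and 2.85% in the dura mater libraries). At an unadjusted p under 0.05 there were 12 of the 50, 10 higher and 2 lower (7.04% and 2.97% of all genes tested). For 30 of them the tissues did not overlap, 24 higher and 6 lower (43.1% of all genes tested, 26.2% higher and 16.9% lower). Of the 50, 7 had 64 or more counts in both dura mater libraries and fewer in both brain libraries. Tgif2 and Klf10, described below, are among these, were tested through the dura mater libraries alone and had to be higher there. Some of the lower genes were likewise tested through the brain libraries alone. These tallies are given as a description, not as support.

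By sub-list, 0 of 3 tested receptors, 0 of 2 ligands, 0 of 9 antagonists and matrix proteins, 0 of 20 co-factors and 1 of 16 targets passed the edgeR test. Of the 21 other ligands listed, 15 were listed at 0 in all 4 libraries, when 13660 of all 23282 symbols had a count in at least 1 library. Tgif2, a co-repressor of SMADs, had 0 and 1 counts in brain ECs against 4307 and 1280 (10.15, SE 1.45, edgeR adjusted p = 0.0540), a pattern like that of Bmp2. Lrrc32 (GARP), which tethers latent TGF-beta on the cell surface, had 865 and 992 against 5450 and 7766, a value of 2.71 (SE 0.47, edgeR adjusted p = 0.0942). Biglycan (Bgn), a matrix proteoglycan that binds TGF-beta, had 1831 and 3253 against 14356 and 14760 (2.41, SE 0.45, edgeR adjusted p = 0.119). Klf10, a TGF-beta early response gene, had 1 and 0 against 392 and 2581 (9.07, SE 2.09, edgeR adjusted p = 0.213). Fn1, fibronectin, was lower in both dura mater libraries, with 16275 and 16103 against 4954 and 7672 (-1.48, SE 0.33, edgeR adjusted p = 0.194).

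Markers of other cells moved with some of these values. Fibroblast genes, measured as 9 markers, took 0.257% and 0.217% of counts in the brain libraries and 1.17% in both dura mater libraries, most of it Mgp, which endothelium also makes. Of the 9 markers, 6 were higher in both dura mater libraries, and the 1 that was lower, Pdgfra, was under 3 counts in every library. Decorin (Dcn) had 16 and 15 counts in brain ECs against 1184 and 1664, and Col1a1 20 and 42 against 759 and 1237. Pdgfra (1 and 1 against 0 and 1) and Lum (3 and 3 against 4 and 0) were at or near 0. Dpt had 0 and 3 against 434 and 0. Lymphatic endothelial markers took 0.0123% and 0.0138% of brain counts and 0.0346% and 0.0612% of dura mater counts. Without Flt4, the most counted, the shares were 2.76e-05% and 5.07e-05% against 0.0169% and 0.0362%. Of the 6 markers, 4 were higher in both dura mater libraries and 0 lower. Prox1 had 0 and 0 counts against 492 and 125, and Lyve1 0 and 0 against 911 and 1776. The part of lymphatic ECs in the members' values was not tested. Bmp4, Fstl1, Tgfbi and Bgn are also made by fibroblasts of connective tissue, and the part of these cells in their values was not tested. Mural cell markers together overlapped between tissues (0.0695% and 0.113% against 0.116% and 0.0707%), but without Acta2 they were higher in dura mater ECs (0.0351% and 0.0357% against 0.0595% and 0.0479%). Of the 10 mural markers, 4 were higher in both dura mater libraries, such as Kcnj8 (0 and 0 counts against 468 and 410), and 1 was lower. The 6 osteoblast markers took 0.0148% and 0.01% of brain counts and 0.0165% and 0.0137% of dura mater counts, nearly all Alpl in brain ECs. Without Alpl the shares were 6.91e-06% and 0% against 0.0074% and 6.83e-05%, with Ibsp at 0 and 0 counts against 181 and 11, Runx2 at 1 and 0 against 820 and 0, and Sp7, Bglap and Bglap2 at 0 in all 4 libraries. Leukocyte markers overlapped as a sum (0.0147% and 0.00521% against 0.0103% and 0.00893%), with Cd74 at 8 and 22 counts against 1108 and 1254, and without Cd74 they were lower in dura mater ECs (0.0147% and 0.00505% against 0.00212% and 0.00114%). Astrocyte markers took 0.00519% and 0.000796% of brain counts and 0.0434% and 0.0163% of dura mater counts, and without Gja1 they took 5.53e-05% and 5.07e-05% against 0.0164% and 0.00101%, with Aqp4 at 0 in all 4 libraries. The part of these cells in the members' values was not tested. Red cell genes took 1.8% and 2.46% of the brain libraries and 0.148% and 0.0773% of the dura mater libraries.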

How the data were processed

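RNA was measured in 2 libraries of brain ECs and 2 of dura mater ECs. Total RNA was extracted with Trizol and libraries were made with the QuantSeq kit, made to read transcripts from their polyadenylated 3′ ends. The deposited values are raw counts per gene symbol, unscaled and unfiltered, 1 table per library. The study's methods name TopHat for mapping and cufflinks for abundance, while the labels' processing notes name Bowtie2, edgeR and build mm10. The counting step, annotation, strand and molecular identifiers are not given in the sources used here. Counts of one gene per library were mostly either 7 or fewer or 64 or more.

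Groups came from the sample titles. The test was edgeR 4.0.16 quasi-likelihood (default, older dispersion estimate; R 4.3.3) with TMM scaling, filterByExpr, a model with tissue alone, and p-values adjusted by Benjamini-Hochberg over 9347 genes. edgeR replaces the cufflinks test, which needs alignments. Log2 fold changes used a prior count of 2, and the SE is the log2 fold change over the square root of F. The common biological coefficient of variation was 1.39. A floor is 3 counts, and intervals of ratios are exact binomial and cover counting error only. Alternatives used DESeq2 1.42.0, limma-voom 3.58.1, other scalings, filters, a prior count of 0.5, thinned depth and single libraries left out. The titles number libraries 1 and 2 in each tissue. Same-numbered libraries' deviations from the tissue means correlated at -0.0153. A single correlation over genes cannot show whether they shared a preparation, and the sources do not say. Replicates were checked for shared counts and differed by more than sampling noise.

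Counts for all 44 members are given by role. Those named with counts in every library had an adjusted or unadjusted p under 0.05 or differed at least 4-fold without overlap, with 64 or more counts in both higher libraries, or were the 2 most counted of their role or named endothelial members. Of the other pathway genes, those with an adjusted p under 0.05 and up to 6 with the smallest p were named. Members, lists and named-gene rules were chosen with earlier results of these data known. The 24 widely expressed genes were chosen after the data were seen, and 1 more gene is not reported here. The scripts were tested on simulated data. Gene positions are from GENCODE on GRCm38 and promoters from RefSeq.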

Additional observations from a re-analysis of the deposited data

How the results depend on the processing

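The number of genes that differed (57) rose to 810 under DESeq2, 305 with edgeR's newer estimate, 326 with no filter, 141 with 10 counts in every library, and 1257 under DESeq2 on every gene with a count, an alternative chosen after seeing the data. Leaving out 1 library gave 80 to 740 (740 without brain library 1, 701 without brain library 2, 97 without dura mater library 2). The 0 members became 7 under DESeq2 and under DESeq2 on every gene with a count, 3 with the newer estimate and with no filter (Bmp2, Bmp4 and Fstl1), 1 with 10 counts in every library (Bmp4) and 0 to 5 with 1 library left out. The number of genes that differed also rose under each of these settings, so the rise was not particular to the members. The share of all genes was 0.61% as reported, 9.02% under DESeq2 and 12% under DESeq2 on every gene with a count. It was 3.26% with the newer estimate, 2.39% with no filter and 2.95% with 10 counts in every library. No member passed with limma-voom, other scalings, a prior count of 0.5, thinning or 64 counts in both libraries of a group, the last also chosen after seeing the data. With the replicate block, pairing same-numbered libraries, 224 genes, 2 members (Bmp2, Bmp4) and 6 other pathway genes differed. The 1 other pathway gene became 12 under DESeq2 (9.02% of all genes) and under DESeq2 on every gene with a count (12%). It became 7 with the newer estimate (3.26%), 8 with no filter (2.39%) and 6 with 10 counts in every library (2.95%). It became 2 with limma-voom (0.856% of all genes), with upper-quartile scaling (0.749%) and with the 64-count filter (0.947%), and it also moved with 1 library left out.

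With 10 counts in every library the median log2 fold change was -0.63 for receptors, 0.34 for SMADs and -0.12 for ID genes. That filter drops members low in 1 tissue. The groups did not overlap for 11 of the 23 members it tested, against 17 of 33 before, and the share over all genes was not worked out there. With 1 library left out the median ranged from 0.03 to 0.37 for receptors, -0.06 to 0.71 for SMADs, -0.08 to 0.48 for ID genes, 2.37 to 6.90 for ligands, 2.65 to 4.70 for antagonists, 0.29 to 1.76 for latent TGF-beta binding proteins, -0.66 to 0.25 for SMAD brakes and 5.50 to 6.65 for Tgfbi. Upper-quartile scaling moved the median of all genes from -0.01 to 0.13. The sign turned for members near 0: Tgfbr2 to -0.02 under DESeq2 on every gene, Smad4 to 0.06 with limma-voom, 0.02 with upper-quartile scaling and 0.03 with the replicate block, and Smad6 to 0.04 with upper-quartile scaling. With 1 library left out it turned for Tgfbr2 (-0.33 to 0.30), Smad3 (-0.86 to 1.81), Smad4 (-0.71 to 0.65), Smad6 (-0.46 to 0.26), Id3 (-0.55 to 0.15), Smurf1 (-0.55 to 0.94) and Ski (-0.86 to 0.17). In all, 34 values of single members newly passed the threshold under another setting. The cause was not tested. The 2 libraries a tissue, their spread and the single brain counts behind Bmp2 limit what these counts can show, and a lone library in a tissue was assumed to vary like the others.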
